A study of Mus musculus with 20 samples.

Results

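The collagen chain genes are the genes whose symbol is Col followed by a number, the letter a and a number. The rule was applied to the probe sets that carry 1 gene symbol, and it found 42 genes among 19505, each with 1 probe set on the Clariom S array. RNA of nucleus pulposus (NP) and annulus fibrosus (AF) tissue was hybridised from 5 WT mice and 5 ank/ank (ank) mice at 13 weeks of age, with 2 males and 3 females per genotype, 1 array for each tissue of each mouse and 20 arrays in all. The ank mice are homozygous for the loss-of-function progressive ankylosis allele of Ank, a membrane protein that raises pyrophosphate outside the cell, and both genotypes were littermates bred from C3FeB6 A/Aw-J-Ank ank/J heterozygotes. The allele is carried by every cell of the animal, so the arrays cannot separate the loss of Ank in the disc from its loss elsewhere. Each sample pooled the microdissected tissue of several discs of 1 animal, which the labels give as caudal and lumbar and the methods of the study as caudal. Replicates are named by the number of the mouse, and this number also joins the AF array and the NP array of 1 animal. The comparisons ask how collagen transcripts differ between ank and WT discs within each tissue, and between the tissues of 1 genotype. Ank itself was not analysed here.

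A collagen is a triple helix of 3 alpha chains, which may be encoded by 1 gene or by several. Type I collagen, with type III as its companion, makes the tension-bearing fibres of the outer AF, tendon and bone, whereas types II, IX and XI make the thin fibrils of cartilage and of the NP. Type VI collagen forms beaded filaments around cells, and in cartilage and disc it is a main part of the pericellular matrix. Type X collagen is a short network collagen of hypertrophic chondrocytes, type IV builds basement membranes, and types XV and XVIII sit next to basement membranes. Chains are hydroxylated and folded in the endoplasmic reticulum, trimmed after secretion and joined by lysyl oxidases.

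All values are deposited log2 signals, and every difference is on the log2 scale. The background of an array was taken as the level that 95 percent of 1426 chemosensory receptor genes, silent in a disc, stay below (odorant, pheromone or trace amine receptors). A gene entered a comparison when it lay above the background in at least 5 of the 10 arrays compared. Between 3971 and 7430 genes lay above it in the NP arrays and between 1782 and 6368 in the AF arrays, and the lowest count belonged to AF ank replicate 31, whose background was also the highest of all (8.41). In NP tissue the list of nucleus pulposus and notochord markers averaged 13.24 to 13.70 over its 9 genes measured. The 6 of them that entered the NP comparison were Krt8, Krt18, Krt19, Cd24a, Car3 and Lgals3. None of the notochord genes T, Shh, Noto and Foxa2 entered it. Only 9 of the 10 genes listed were measured, so not every one of these was. The same list averaged 7.96 to 11.65 in AF WT and 9.50 to 12.52 in AF ank arrays, with Krt19, a keratin of NP cells, at 4.24 to 12.68 in AF WT and 9.37 to 16.20 in AF ank. The tendon and AF list averaged 8.90 to 10.05 in AF WT arrays (median 9.74) and 8.71 to 9.41 in AF ank arrays (median 8.98). In the NP it averaged 7.32 to 7.88. In bulk tissue, fewer cells of a type and less RNA per cell cannot be told apart. Spike-in controls divide the arrays into sets A and B, and both sets hold both genotypes in each tissue.

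AF WT replicate 33 stood apart from the other AF WT arrays in several marker lists, which were chosen with earlier results of these data known. Its mean over 9 osteoblast genes was 12.95, against 5.83 to 6.82 in the other AF WT arrays and 6.04 to 7.94 in AF ank, and 8 of the 9 lay above background there. Its macrophage and osteoclast list averaged 12.22 against 5.80 to 6.39, with Acp5, the acid phosphatase of osteoclasts, at 19.09. Its skeletal muscle list averaged 12.55 against 5.68 to 7.02. The fibroblast and pericyte list averaged 11.63 against 6.97 to 8.16, with all 9 genes above background, and the endothelium list 8.02 against 4.88 to 5.53. The top of the AF ank range in osteoblast genes was replicate 41, with 6 of the 9 above background. Replicate 41 also had 5 of 6 macrophage and osteoclast genes and 7 of 12 skeletal muscle genes above background. NP WT replicate 55 was raised in fewer lists. The osteoblast list averaged 6.88 there against 4.98 to 5.78 in the other NP WT arrays, and the macrophage and osteoclast list 8.29 against 6.78 to 7.12. Only 1 of its 9 osteoblast genes and 3 of its 6 macrophage and osteoclast genes lay above background, as in NP WT replicate 32. Its skeletal muscle (5.66), fibroblast and pericyte (6.78) and endothelium (4.99) lists lay within the range of the other NP WT arrays. Bone cells and fibroblasts also make type I collagen, so results that rest on AF WT replicate 33 or NP WT replicate 55 are given with and without them.

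Most collagen chains, like most genes, entered no comparison of genotypes. Of all 19505 genes, 4078 entered the AF comparison, 6340 the NP comparison and 3903 both. Of the 42 members, 13 entered the AF comparison, 11 the NP comparison and 10 both. The other 28 members entered neither, 18 of them above background in 0 of the 20 arrays and 10 in some. The fibrillar class supplied 5 of its 11 members in the AF (Col1a1, Col1a2, Col2a1, Col3a1 and Col11a1) and 4 in the NP (Col1a1, Col1a2, Col11a1 and Col11a2). Type VI supplied Col6a1, Col6a2 and Col6a3 in both tissues and none of its other 3 chains. The fibril-associated chains Col9a3 and Col16a1, the short chain Col8a2 and Col28a1 entered in both, and Col10a1 in the AF alone. None of the 6 type IV chains, the 2 multiplexins or the 4 transmembrane collagens entered a comparison of genotypes. Col7a1 and Col12a1 were not analysed here.

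**Figure D1:**
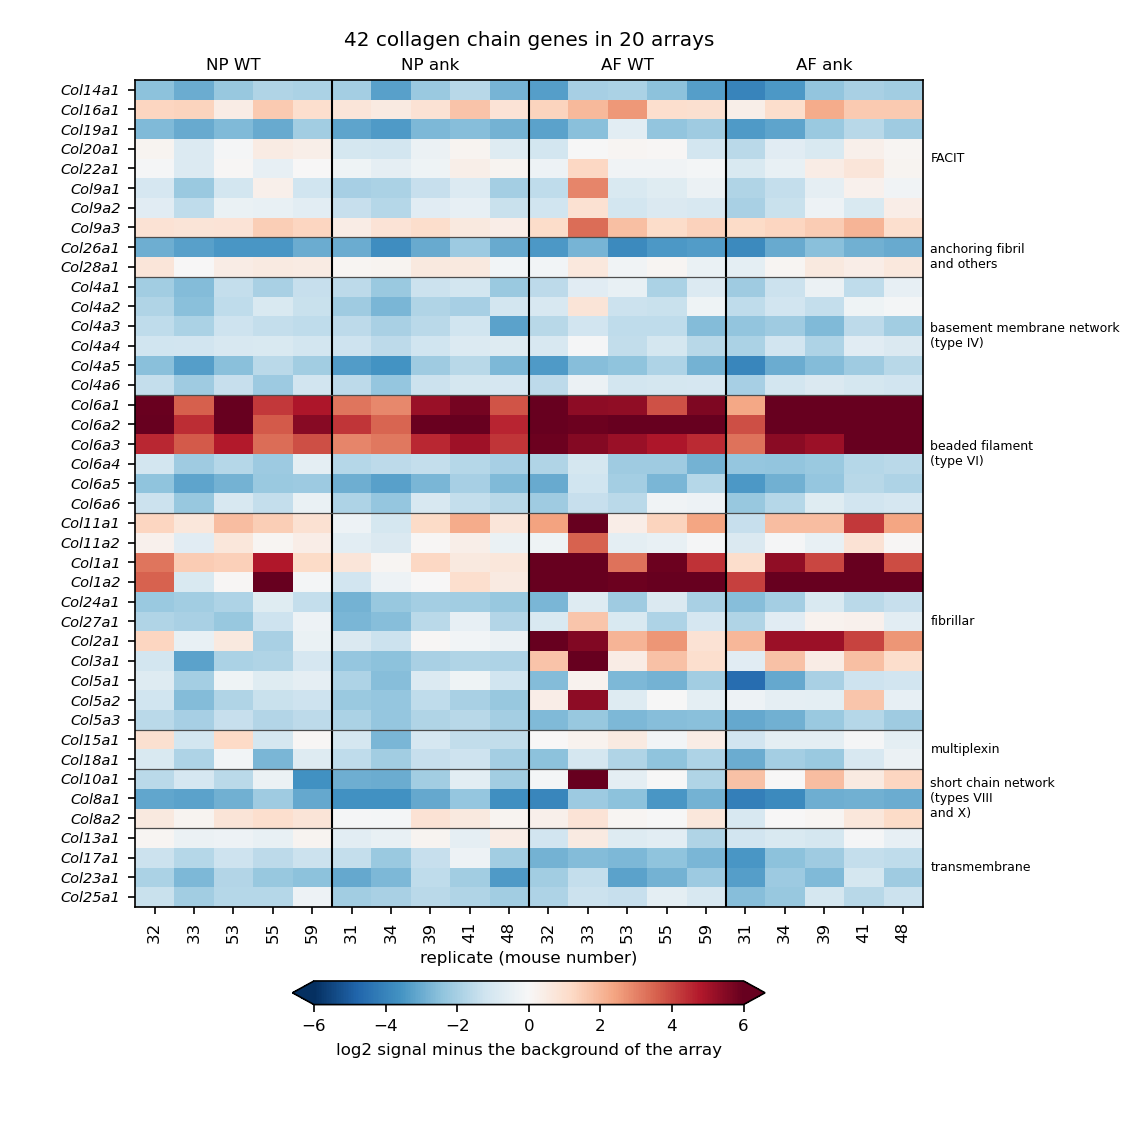
Log2 signal of each collagen chain gene (rows, by class) minus the background of the array, in each of the 20 arrays (columns, by group and mouse number), with colours ending at 6 below and above. Col6a1, Col6a2, Col6a3, Col1a1, Col9a3 and Col16a1 are above background in all 20 arrays, and AF WT replicate 33 is the column with the most members above it.

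Of the 15 members tested between tissues in WT mice, 6 were higher in the AF and 0 were lower by limma's adjusted p. Among all 5454 genes tested, 1.63% were higher in the AF and 67% were lower. The members that rose were Col1a1, Col1a2, Col2a1, Col3a1, Col6a2 and Col6a3. Their groups did not overlap for 2 of them, Col3a1 and Col6a3, and 0.88% of all genes tested showed such a gap in that direction and 44.5% in the other. Among all genes 71.7% had an unadjusted p under 0.05. In ank mice 7 of 13 members were higher and 0 lower, against 1.28% and 46.4% of 5149 genes. These were Col1a1, Col1a2, Col2a1, Col10a1, Col6a1, Col6a2 and Col6a3, and the groups did not overlap for Col1a1, Col1a2, Col2a1 and Col10a1, a gap that 1.05% of all genes showed upwards and 25.2% downwards. Here 58% of all genes had an unadjusted p under 0.05. The thresholds used by the study ask for a fold change of 1.75 or more with p under 0.05 before adjustment, and by these Col9a3 joined the 6 in WT mice (1.71% of all genes higher, 68.7% lower) and the 7 of the ank mice stayed 7 (1.57% and 54.7%). Col9a3 dropped out again without mouse 32, 33, 53 or 59, and with the mouse as a block, where Col11a1 took its place. The median difference of the members tested was 0.84 in WT and 1.21 in ank mice, and that of all genes −1.50 and −1.09. Of the members, 12 of 15 and 10 of 13 lay above 0, against 9.96% and 8.78% of all genes. AF arrays have lower medians over all probe sets (5.71 to 5.98) than NP arrays (6.09 to 6.41), and the tissues may have been normalized in separate runs. After quantile normalization over all 20 arrays the medians of all genes moved to −0.38 and −0.17, 11 members were higher in WT and 7 in ank mice, and all members tested had a difference above 0, where 3 of 15 and 3 of 13 lay below 0 as deposited. The split of all genes then was 391 higher and 1134 lower in WT, against 89 and 3654 as deposited, and 95 and 82 in ank, against 66 and 2391. Col3a1 in WT mice and Col10a1 in ank mice entered only because of their AF arrays, so a difference had to appear in them. Col1a2 and Col2a1 also entered through their 5 AF arrays in each genotype. Above background were 3 NP arrays of each genotype for Col1a2, and 2 WT and 1 ank NP arrays for Col2a1. The filter thus favoured a higher AF in these genes as well.

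**Figure D2:**
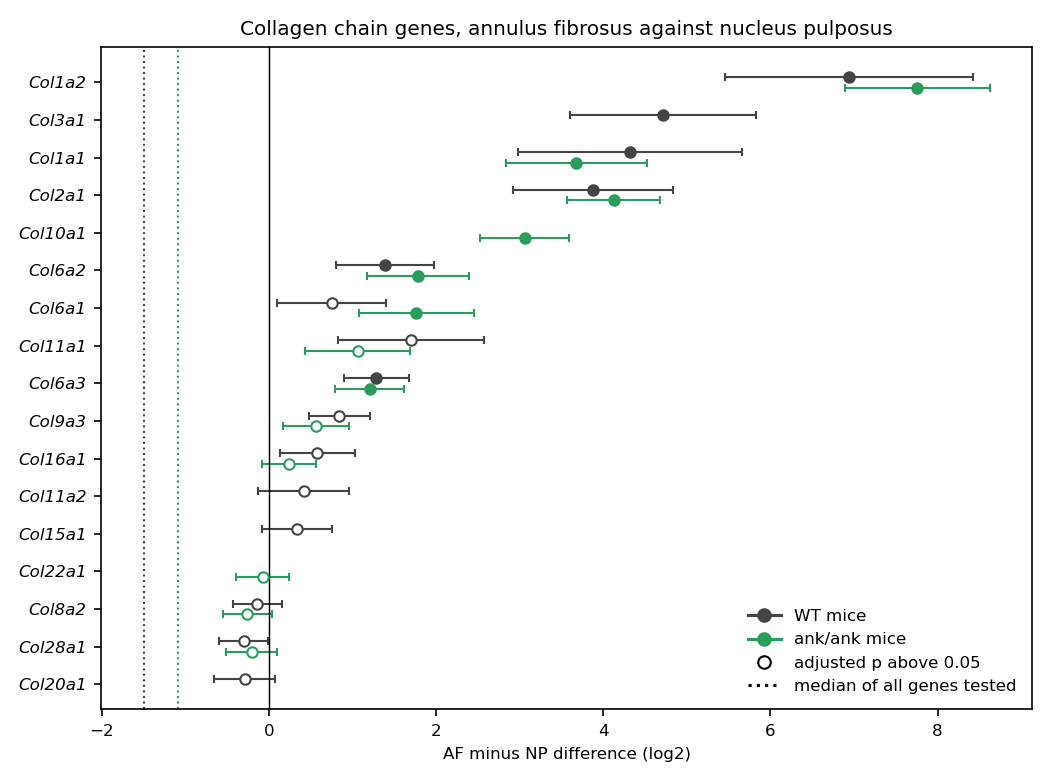
AF minus NP difference (log2, horizontal axis) with its standard error for each collagen gene tested, in WT mice (grey) and ank mice (green). Open symbols have an adjusted p above 0.05, and dotted lines mark the medians of all genes tested, −1.50 in WT and −1.09 in ank mice.

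Between genotypes no member had an adjusted p under 0.05 by limma in either tissue, and neither did any other gene (0 of 4078 in the AF and 0 of 6340 in the NP, with 154, or 3.78%, and 269, or 4.24%, at an unadjusted p under 0.05). At the study's thresholds 0 of 13 members counted in the AF, where 3.56% of all genes tested were higher and 0.147% lower in ank. In the NP 1 of 11 members counted, Col1a1, which was lower in ank, where 0.505% of all genes were higher and 2.81% lower. No member separated the genotypes without overlap in either tissue, as 0.294% of all genes did upwards and 0.049% downwards in the AF, and 0.205% and 0.552% in the NP. The members' median difference was −0.24 in the AF against 0.28 for all genes, and 5 of 13 lay above 0, against 72.4% of all genes. These values moved with the setting: 1 of 13 lay above 0 after quantile normalization (median −0.47, all genes 0.06) and within spike-in set A (median −1.50, all genes −0.25), 6 of 13 without WT replicate 33 (median −0.04, all genes 0.42) and 9 of 13 within set B (median 0.66, all genes 0.67). In the NP it was −0.12 against −0.11, with 3 of 11 above 0, against 37.8%. A p that misses the threshold does not show that the genotypes were alike, and the number of mice limits the precision.

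**Figure D3:**
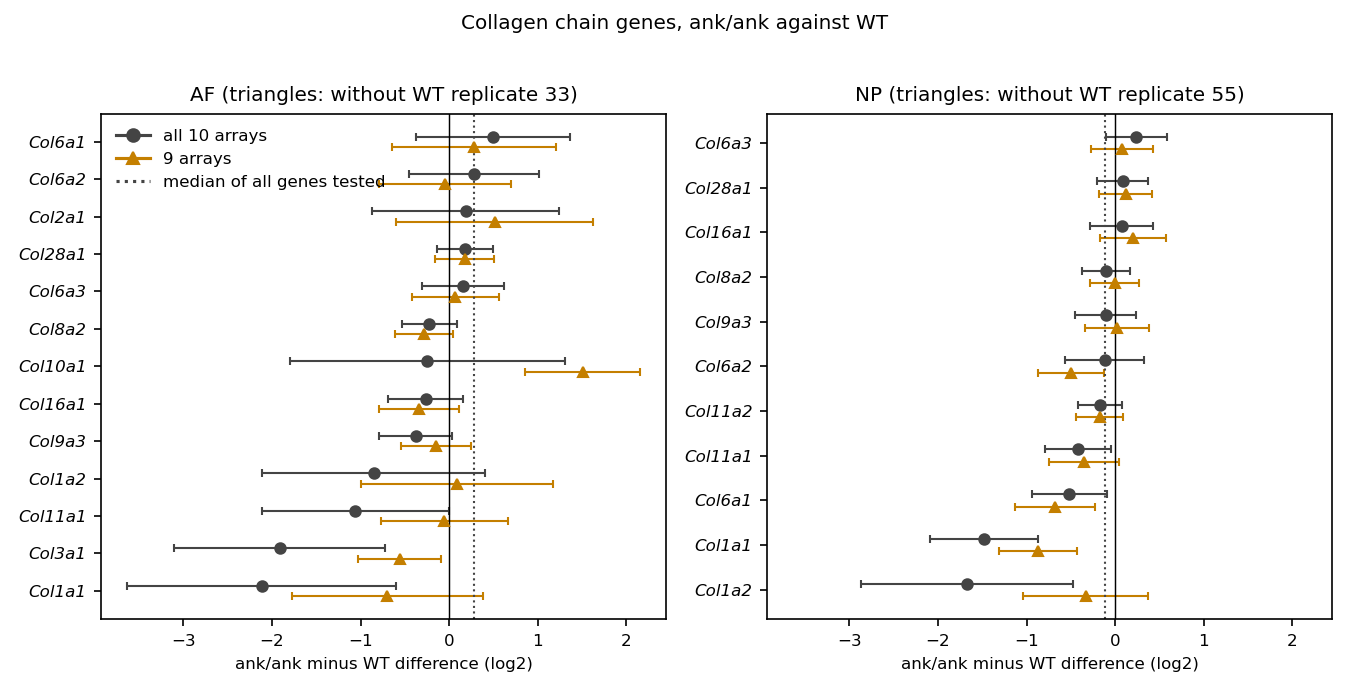
ank minus WT difference (log2, horizontal axis) with its standard error for each collagen gene tested in the AF (left) and the NP (right), over all 10 arrays (circles) and without AF WT replicate 33 or NP WT replicate 55 (triangles). Col1a1, Col1a2, Col3a1 and Col11a1 lie below 0 over all AF arrays and closer to it without replicate 33, and Col10a1 moves from −0.24 to 1.51.

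Col1a1 and Col1a2 encode the chains of type I collagen. In AF WT tissue Col1a1 measured 10.86, 11.70, 13.45, 14.39 and 19.68 in replicates 53, 59, 55, 32 and 33. AF ank tissue gave 9.46, 10.78, 11.25, 12.93 and 15.09 in replicates 31, 48, 39, 34 and 41. The genotypes overlapped, and the highest array of each genotype, WT replicate 33 and ank replicate 41, was also its highest in osteoblast genes. NP values of Col1a1 were 8.19, 8.42, 9.46, 10.29 and 12.13 in WT replicates 59, 53, 33, 32 and 55 and 7.40, 8.29, 8.39, 8.51 and 8.51 in ank replicates 41, 39, 34, 31 and 48. Of the 5 WT arrays, 3 lay above every ank array, and the other WT arrays lay within the ank range. Col1a1 was higher in the AF than in the NP by 4.32 (SE 1.34, adjusted p = 0.0118) in WT and by 3.68 (SE 0.84, adjusted p = 0.0071) in ank mice, and in all 10 mice. Without mouse 33 the WT difference was 2.84 (adjusted p = 0.0103). In spike-in set A alone it was 7.64, and in set B alone 1.84 (adjusted p = 0.161).

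In the NP, Col1a1 was lower in ank than in WT by a difference of −1.48 (SE 0.61, limma's unadjusted p = 0.0300, adjusted p = 0.973). Without WT replicate 55 the difference was −0.87 (unadjusted p = 0.0711), and Col1a1 then missed the study's thresholds, which 0.347% of all genes met upwards and 3.75% downwards. It also missed them without WT replicate 32, without ank replicate 41 and with the methods' t-test. The arrays of spike-in set A gave −0.99 and those of set B −2.21. In the AF the difference was −2.12 (SE 1.52, adjusted p = 0.947), −0.70 (SE 1.08) without WT replicate 33 and −2.91 without ank replicate 41. Within set A, which holds replicate 33 and the weakest array, it was −5.84, and within set B it was 0.37. The marker lists raised in AF WT replicate 33, NP WT replicate 55 and AF ank replicate 41 lie beside these values, and their part in the result was not tested.

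Col1a2 showed the widest tissue difference of the members tested in both genotypes. AF WT values were 13.48, 14.66, 15.41, 17.38 and 19.93 in replicates 53, 59, 55, 32 and 33, of which the last is the ceiling of the table. AF ank values were 12.51, 14.15, 15.63, 15.92 and 18.39 in replicates 31, 48, 39, 34 and 41. Within each genotype the order of the mice was the same as for Col1a1, and the genotypes overlapped. NP values were 6.92, 6.98, 7.03, 10.65 and 14.59 in WT replicates 59, 33, 53, 32 and 55 and 6.60, 7.10, 7.82, 7.97 and 8.34 in ank replicates 31, 39, 41, 34 and 48. Col1a2 lay above background in 3 of the 5 NP arrays of each genotype, and in the WT mice replicates 32 and 55 stood above all other NP arrays. The AF minus NP difference was 6.94 (SE 1.48, adjusted p = 0.0012) in WT and 7.75 (SE 0.87, adjusted p = 6.38e-04) in ank mice. Without mouse 33 it was 5.44 in WT mice. Between genotypes Col1a2 differed by −0.85 (SE 1.26) in the AF, which turned to 0.09 without WT replicate 33 and became −1.62 without ank replicate 41. In the NP it differed by −1.67 (SE 1.20), which became −0.33 without WT replicate 55.

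**Figure D4:**
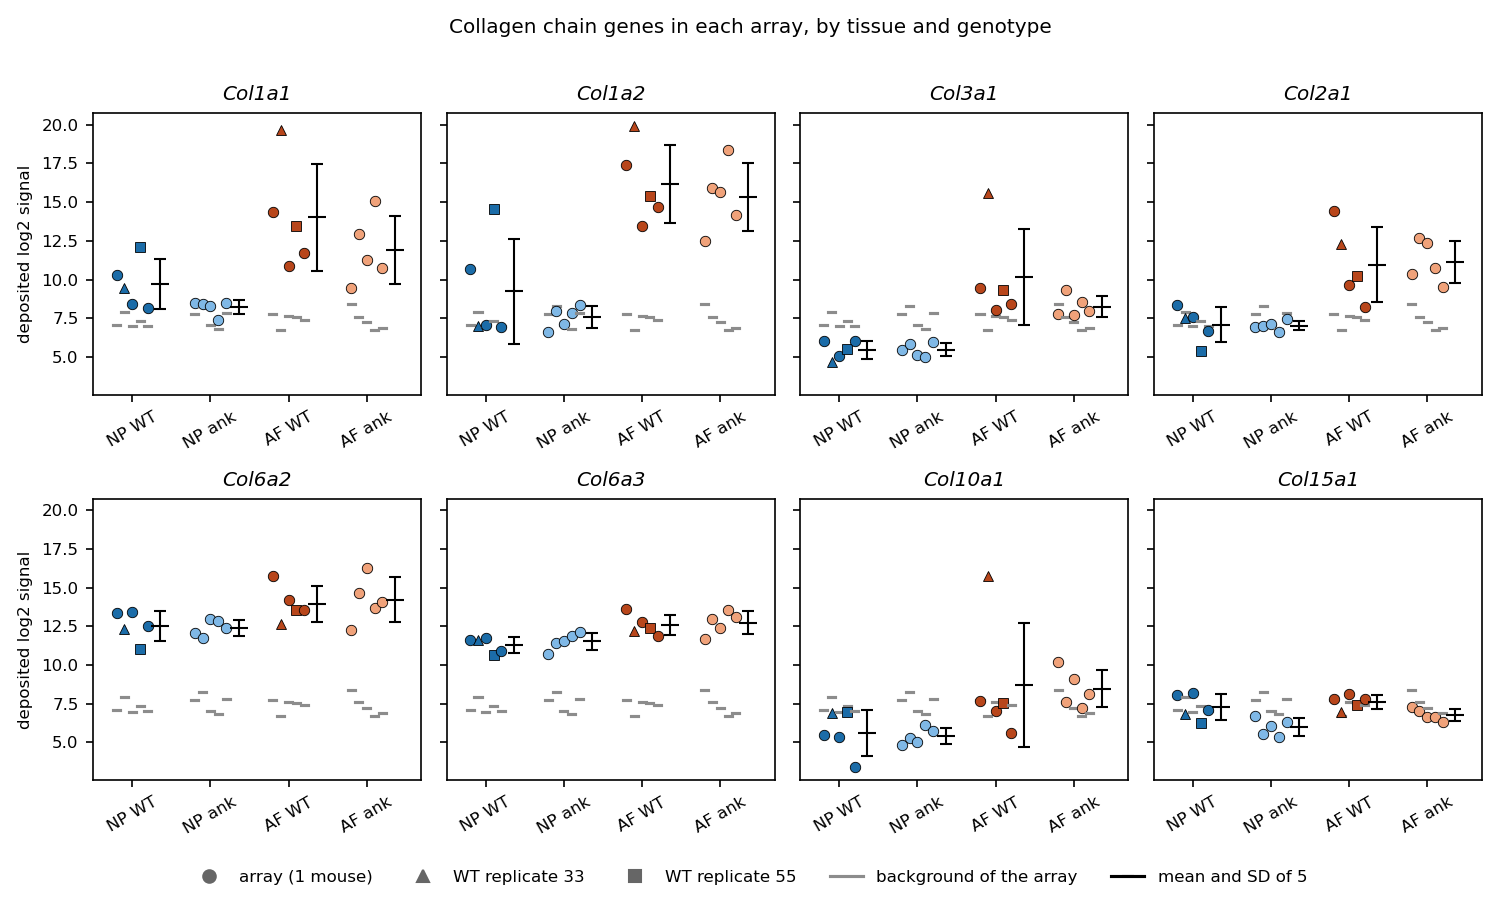
Deposited log2 signal (vertical axis) of 8 collagen genes in each array by group, with the mean and SD of 5 arrays in black and each array's background as a grey line. AF WT replicate 33 (triangle) is the highest AF WT array for Col1a1, Col1a2, Col3a1 and Col10a1, and NP WT replicate 55 (square) the highest NP WT array for Col1a1 and Col1a2.

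Col3a1, the chain of type III collagen, measured 8.06, 8.40, 9.35, 9.43 and 15.58 in AF WT replicates 53, 59, 55, 32 and 33. AF ank values were 7.69, 7.75, 7.96, 8.52 and 9.34 in replicates 39, 31, 48, 41 and 34, all above background except in replicate 31. No NP array reached its background, and the NP ran from 4.68 to 6.004. Every AF array thus lay above every NP array of its genotype. Set against the lowest measurable signal, Col3a1 was at least 7.45-fold higher in AF than in NP of WT mice and at least 1.63-fold higher in ank mice (it did not enter the fit in ank). The WT bound rests on an AF WT mean of 10.17, which was 8.81 without replicate 33, so the bound is smaller without that array. The fitted WT difference was 4.71 (SE 1.11, adjusted p = 0.0023), and 3.17 without mouse 33. Between genotypes the AF difference was −1.91 (SE 1.19, adjusted p = 0.947), and it was −0.56 (SE 0.47) without WT replicate 33. Col5a2, the neighbour of Col3a1 on chromosome 1 and a chain of the type V collagen that sets fibril width, was above background in 3 AF arrays and 0 NP arrays, at 12.10 in AF WT replicate 33.

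The promoters of Col1a2 and Col3a1 are shown because both chains were near or below background in most NP arrays and above it in the AF. The 150 bases before the annotated start are given 5′ to 3′ on the strand of the gene, from RefSeq on build GRCm38.p6, and capitals mark matches on either strand to TATAAA (the TATA box), to CCAAT (the CCAAT box), to GGGCGG (the GC box) or to GGGAGGG, a G-rich element.
Col1a2 (chr6:4505468-4505617, plus strand): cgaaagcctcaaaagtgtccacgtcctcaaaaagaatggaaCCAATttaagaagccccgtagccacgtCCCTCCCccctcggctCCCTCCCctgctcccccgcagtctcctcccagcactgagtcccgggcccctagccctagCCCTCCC
Col3a1 (chr1:45311388-45311537, plus strand): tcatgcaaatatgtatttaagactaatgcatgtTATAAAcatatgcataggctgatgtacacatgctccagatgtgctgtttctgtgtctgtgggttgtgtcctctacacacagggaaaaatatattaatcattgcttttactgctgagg
The window of Col1a2 holds 1 CCAAT and 3 matches to GGGAGGG, all read as CCCTCCC, and that of Col3a1 holds 1 TATAAA. These are matches of letters only.

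Col2a1, the chain of type II collagen, was clear in the AF and close to background in the NP. AF WT values were 8.24, 9.65, 10.22, 12.27 and 14.43 in replicates 59, 53, 55, 33 and 32. AF ank values were 9.52, 10.38, 10.75, 12.38 and 12.71 in replicates 48, 31, 41, 39 and 34. The ank arrays all lay within the wider WT range, and replicate 33 was not the highest. NP values ran from 5.39 to 8.37 in WT and from 6.64 to 7.47 in ank arrays, with 2 and 1 arrays above background. The AF minus NP difference was 3.87 (SE 0.96, adjusted p = 0.0031) in WT and 4.12 (SE 0.56, adjusted p = 0.0011) in ank mice, and the AF was higher in all 10 mice by 1.60 to 6.06. Without mouse 33 the WT difference was 3.64. Between genotypes the AF difference was 0.19 (SE 1.05, adjusted p = 0.987) and turned to −0.08 after quantile normalization. The other cartilage genes differed among themselves. In WT mice Chad (12.02), Cytl1 (10.45), Prg4 (8.85) and Cnmd (5.99) were higher in the AF. Sox9, a transcription factor of chondrocytes, was lower (−1.92, limma's adjusted p = 0.0214), and Acan (−0.30), Hapln1 (0.33) and Snorc (−0.66) did not pass. Over all genes in this comparison the median was −1.50, with 1.63% higher and 67% lower, so the Sox9 difference was near that of a typical gene.

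The other cartilage fibril chains differed less between the tissues or stayed near background. Col11a1, a chain of type XI collagen that nucleates these fibrils, ran from 8.001 to 14.23 in AF WT, from 7.02 to 10.98 in AF ank, from 7.93 to 8.83 in NP WT and from 7.20 to 9.02 in NP ank arrays. Its highest value was again in AF WT replicate 33, and its AF minus NP difference of 1.70 (SE 0.88) in WT mice did not pass (adjusted p = 0.0974) and was 0.72 without mouse 33 (adjusted p = 0.180). Between genotypes it differed by −1.06 (SE 1.06) in the AF, or −0.05 without replicate 33, and by −0.42 (SE 0.37) in the NP. Col9a3, a chain of the type IX collagen that decorates type II fibrils, lay above background in all 20 arrays, whereas its partners Col9a1 and Col9a2 did so in 3 and 2. Col9a3 was 0.84 higher in AF than in NP of WT mice (SE 0.37, adjusted p = 0.0548) and differed between genotypes by −0.38 (SE 0.42) in the AF and −0.11 (SE 0.35) in the NP.

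Col6a1, Col6a2 and Col6a3 encode the main chains of type VI collagen, and all 3 lay above background in all 20 arrays. Col6a2 measured 12.62, 13.53, 13.55, 14.18 and 15.73 in AF WT replicates 33, 59, 55, 53 and 32. In AF ank it measured 12.28, 13.71, 14.09, 14.68 and 16.27 in replicates 31, 41, 48, 34 and 39. The genotypes overlapped over nearly their whole range, and replicate 33 gave the lowest WT value here. NP values of Col6a2 were 11.01, 12.36, 12.50, 13.39 and 13.41 in WT replicates 55, 33, 59, 32 and 53 and 11.76, 12.07, 12.41, 12.86 and 13.00 in ank replicates 34, 31, 48, 41 and 39. Col6a2 was higher in AF than in NP in all 10 mice, by 1.39 (SE 0.59, adjusted p = 0.0486) in WT and 1.79 (SE 0.61, adjusted p = 0.0328) in ank mice.

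Col6a3 measured 11.87, 12.23, 12.42, 12.78 and 13.62 in AF WT replicates 59, 33, 55, 53 and 32. In AF ank it measured 11.66, 12.36, 13.01, 13.13 and 13.55 in replicates 31, 39, 34, 48 and 41. The genotypes overlapped. The NP ran from 10.65 to 11.72 in WT and from 10.68 to 12.12 in ank arrays, so the tissues were separate in WT mice and overlapped in ank mice. The tissue difference was 1.29 (SE 0.39, adjusted p = 0.0103) in WT and 1.21 (SE 0.42, adjusted p = 0.0338) in ank mice, again in all 10 mice. These calls were fragile: Col6a2 in WT mice was lost without mouse 32, 53, 55 or 59 (adjusted p = 0.0714 to 0.138), and in ank mice Col6a2 was lost without mouse 34, 39 or 48 and Col6a3 without mouse 34, 39, 41 or 48 (adjusted p = 0.0516 to 0.120), while the differences stayed at 1.09 to 1.81. Col6a1 followed with 0.75 (SE 0.65, adjusted p = 0.315) in WT and 1.77 (SE 0.68, adjusted p = 0.0496) in ank mice, and the AF was higher in 7 of 10 mice. The ank call of Col6a1 was lost without mouse 34, 39, 41 or 48 (adjusted p = 0.0830 to 0.151). Between genotypes the 3 chains differed by 0.16 to 0.50 in the AF (SE 0.46 to 0.86), where Col6a2 and Col6a3 turned to −0.47 and −0.35 after quantile normalization, and by −0.51 to 0.24 in the NP (SE 0.34 to 0.45). In the AF, ank replicate 31, the array with the fewest genes above background, was the lowest ank array for all 3, and also for Col1a1, Col1a2 and Col11a1.

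The promoters of the 3 chains are shown because these chains of 1 collagen were above background in every array, as were Col1a1, Col9a3 and Col16a1. They are printed and marked as above.
Col6a1 (chr10:76726045-76726194, minus strand): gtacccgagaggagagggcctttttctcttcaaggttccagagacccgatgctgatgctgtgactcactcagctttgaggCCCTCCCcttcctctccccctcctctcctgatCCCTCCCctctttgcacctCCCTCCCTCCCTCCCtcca
Col6a2 (chr10:76623631-76623780, minus strand): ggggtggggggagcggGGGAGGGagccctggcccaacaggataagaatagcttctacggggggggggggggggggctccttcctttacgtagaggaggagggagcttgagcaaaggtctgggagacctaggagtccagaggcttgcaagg
Col6a3 (chr1:90843972-90844121, minus strand): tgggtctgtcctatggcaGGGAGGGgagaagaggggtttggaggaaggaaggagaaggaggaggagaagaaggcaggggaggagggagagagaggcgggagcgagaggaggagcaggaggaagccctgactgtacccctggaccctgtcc
Col6a1 holds 5 matches to GGGAGGG, 3 of which overlap in 1 run, and Col6a2 and Col6a3 hold 1 each. None of the 3 windows holds the letters of the TATA box, the CCAAT box or the GC box. GGGAGGG was found in 44.1% of the 34 members with a window and in 14.6% of 32851 RefSeq windows of this length. The other shares were 11.8% and 7.57% for TATAAA, 20.6% and 24.5% for CCAAT, and 50% and 28.6% for GGGCGG. Col6a1 and Col6a2 are adjacent protein-coding genes on chromosome 10, 1 of 8 such pairs among the 42 genes, whereas Col6a3 lies on chromosome 1.

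Correlations between arrays were computed for 9 pairs of chains. Over the 10 AF arrays Col1a1 and Col1a2 correlated with Pearson r = 0.946 (permutation p = 2e-05, adjusted over 9 relations 1.8e-04) and Spearman rho = 0.927 (permutation p = 4.6e-04). Without the 2 arrays farthest from the median of Col1a1 (WT 33 and ank 31), r was 0.912, and within spike-in set B it was 0.888. No other of the 4077 genes tested correlated more closely with Col1a1 in the AF, and the median correlation over these genes was 0.26. Col6a1 and Col6a2 correlated with r = 0.883 in the AF (permutation p = 0.0011, rho = 0.818, permutation p = 0.006) and ranked 5 among the same genes, with r = 0.785 without WT 32 and ank 31. In the NP the same pair gave r = 0.810 (permutation p = 0.0042) and rho = 0.903 (permutation p = 7.2e-04), and r = 0.633 without WT 32 and WT 53. It ranked only 229 among 6339 genes, whose median correlation with Col6a1 was 0.419. Pairs with Col6a3 were looser: with Col6a1 r was 0.692 in the AF (permutation p = 0.028, rho = 0.685, permutation p = 0.034, r = 0.375 without ank 31 and WT 32) and 0.476 in the NP (permutation p = 0.17, rho = 0.576, permutation p = 0.087). With Col6a2 r was 0.509 in the AF (permutation p = 0.13, rho = 0.624, permutation p = 0.06, −0.136 within set B) and 0.614 in the NP (permutation p = 0.06, rho = 0.612, permutation p = 0.068). Without the 2 arrays farthest from the median of Col6a2, r of this pair was 0.708 in the AF (ank 39 and WT 32 left out). In the NP it was 0.366 (WT 55 and WT 53 left out). Col3a1 correlated with Col1a1 in the AF at r = 0.899 (permutation p = 0.0015) and rho = 0.855 (permutation p = 0.0026), or r = 0.707 without WT 33 and ank 31. The NP value for Col1a1 and Col1a2, r = 0.884 (permutation p = 0.0092), rested on 2 arrays, since rho was 0.455 (permutation p = 0.19) and r was −0.303 without WT 55 and WT 32. Arrays of 1 tissue share differences in signal over background and in the tissue taken, which enter every such correlation.

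**Figure D5:**
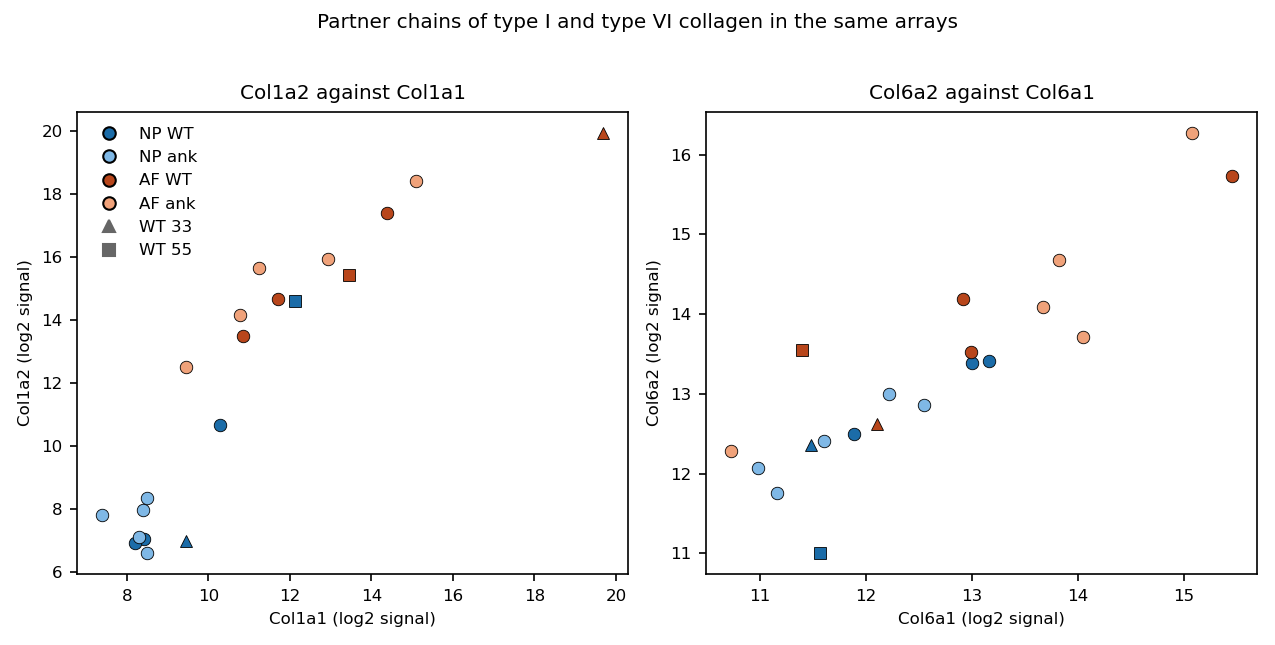
Col1a2 against Col1a1 (left) and Col6a2 against Col6a1 (right), as deposited log2 signals of the same array, in all 20 arrays by group. In the AF the chains of type I rise together from ank replicate 31 to WT replicate 33, while most NP arrays lie at 6.60 to 8.34 in Col1a2.

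Col10a1, the chain of type X collagen, measured 5.58, 7.04, 7.55, 7.65 and 15.73 in AF WT replicates 59, 53, 55, 32 and 33. Only replicate 33 was above its background. AF ank arrays measured 7.25, 7.64, 8.15, 9.10 and 10.18 in replicates 41, 34, 48, 39 and 31, and all 5 were above background. The genotypes overlapped, and in the ank arrays the highest value was in the weakest array. Over all AF arrays the difference was −0.24 (SE 1.56, adjusted p = 0.989). Without WT replicate 33 it was 1.51 (SE 0.65, limma's unadjusted p = 0.0401, adjusted p = 0.630), past the study's thresholds like 7.53% of all genes in that direction and 0.27% in the other, and the arrays of set A gave −2.78 and those of set B 1.44. Col10a1 entered this comparison through its ank arrays, as every WT array but replicate 33 was below background. The filter thus favoured a higher ank value. Col10a1 was below background in all 10 NP arrays, at 3.39 to 6.95. In ank mice it was at least 1.89-fold higher in AF than in NP, with a fitted difference of 3.06 (SE 0.53, adjusted p = 0.0027), and it lay higher in the AF of all 10 mice.

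The promoter of Col10a1 is shown because its AF level set the ank arrays apart from the NP, printed and marked as before.
Col10a1 (chr10:34389831-34389980, plus strand): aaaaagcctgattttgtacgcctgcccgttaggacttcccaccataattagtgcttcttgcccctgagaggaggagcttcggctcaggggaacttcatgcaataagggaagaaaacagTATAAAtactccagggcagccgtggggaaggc
The single match is TATAAA close to the start. Windows of Col1a1 and Col2a1 were not used here.

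Col15a1, the chain of type XV collagen, was near background throughout and did not enter a comparison of genotypes. It measured 6.95, 7.42, 7.77, 7.83 and 8.16 in AF WT replicates 33, 55, 32, 59 and 53. AF ank arrays measured 6.29, 6.67, 6.67, 7.02 and 7.28 in replicates 48, 39, 41, 34 and 31. WT had 4 arrays above background and ank 0, and WT replicate 33 lay within the ank range. Against the lowest measurable signal, the WT mean was at least 1.19-fold higher. This bound, 0.26 on the log2 scale, has no standard error, and the SDs were 0.46 in WT and 0.38 in ank. In the NP, WT arrays measured 6.26, 6.83, 7.08, 8.06 and 8.19 in replicates 55, 33, 59, 32 and 53 and ank arrays 5.34, 5.52, 6.07, 6.34 and 6.72 in replicates 41, 34, 39, 48 and 31. WT had 3 arrays above background and ank 0. The genotypes overlapped, and the WT mean lay under the lowest measurable signal, so no fold is given. When no filter was applied, Col15a1 met the study's thresholds in both tissues, with differences of −0.84 in the AF and −1.29 in the NP, where its values lie mostly under background.

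The other type VIII, XVI, XI and XXVIII chains tested, Col8a2, Col16a1, Col11a2 and Col28a1, differed between genotypes by −0.27 to 0.18, each by less than its standard error. Col4a2 was above background in 1 array, AF WT replicate 33, and the other 5 type IV chains in none. Col18a1, the source of endostatin, and 3 of the 4 transmembrane collagens were also never above background, among them Col17a1 of epithelial hemidesmosomes. Counted by mouse over all 42 genes, 8 were higher in the AF in all 10 mice (Col1a1, Col1a2, Col2a1, Col3a1, Col5a2, Col6a2, Col6a3 and Col10a1) and 2 were lower in all 10 (Col5a3 and Col17a1, both under background). Of all 19505 genes, 1.39% were higher in every mouse and 19.2% lower.

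The AF minus NP difference was also compared between the genotypes. None of the 10 members tested had an adjusted p under 0.05 or met the study's thresholds, and the smallest adjusted p among them was 0.875. By limma 0 of all 3903 genes passed, with 177, or 4.53%, at an unadjusted p under 0.05, and 4.23% were higher and 0.307% lower at the study's thresholds. Of the members 4 of 10 lay above 0, against 74.1% of all genes. Col1a1 gave −0.64 (SE 1.75), Col1a2 0.82 (SE 1.91) and Col6a3 −0.08 (SE 0.57). Without mouse 33 Col1a1 turned to 0.84 (SE 1.37), Col1a2 became 2.32 (SE 1.83) and Col6a3 −0.24 (SE 0.62), and 6 of 10 members lay above 0.

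Genes that modify and fold collagen, taken from lists of 15 hydroxylation and glycosylation, 10 folding and secretion, 8 propeptide processing, 5 crosslinking and 10 receptor genes, were read beside the chains. Between tissues in WT mice, 7 of 11 hydroxylation genes tested were lower in the AF and 0 higher, with a median of −1.49, beside 67% lower and a median of −1.50 over all genes. P4ha1, P4ha2 and P4ha3, catalytic subunits of prolyl 4-hydroxylase, differed by −2.92, −2.97 and −4.26. The receptors tested, Ddr2, Itgb1 and Mrc2, were all lower in the AF, with differences of −3.79, −1.83 and −4.98. Of 7 folding and secretion genes tested, Fkbp14 (−2.68), Mia2 (−2.24), Mia3 (−2.40) and Sec23a (−1.94) were lower in the AF and Sparc was higher. Lox, which starts collagen crosslinks, was higher in the AF by 4.67 (SE 1.26, adjusted p = 0.0055), whereas its homolog Loxl4 was lower, with a difference of −1.21 (adjusted p = 0.0079). Pcolce2, an enhancer of propeptide removal, was higher by 1.87 (SE 0.44, adjusted p = 0.0024). Sparc, a collagen-binding protein of bone and disc, was higher by 2.04 (adjusted p = 6.86e-05), a value limited by the table's ceiling, which 3 of 5 AF WT and 4 of 5 AF ank arrays reached.

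In the NP, 5 of the 27 genes tested from these lists met the study's thresholds between genotypes, all lower in ank, beside 2.81% of all genes lower and 0.505% higher, and none had an adjusted p under 0.973. Sparc measured 17.52 to 18.21 in NP WT and 14.90 to 17.60 in NP ank arrays, a difference of −1.56 (SE 0.42). P4ha2 measured 9.97 to 12.02 and 9.16 to 10.21, a difference of −1.23 (SE 0.37). The WT and ank ranges of both genes overlapped. Colgalt1 and Colgalt2, which add galactose to hydroxylysine, differed by −0.99 (SE 0.44) and −1.19 (SE 0.54), and Loxl3, a lysyl oxidase homolog, by −0.89 (SE 0.34). In the AF 0 of the 24 genes tested from these lists met the thresholds.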

How the data were processed

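RNA of 20 samples was measured on Clariom S mouse arrays. Per the labels and the methods of the study, the authors summarised the scans with sst-rma in the Transcriptome Analysis Console and deposited log2 values for 28846 probe sets. From the deposited values, linear models were fitted over all genes tested (R 4.3.3, package limma 3.58.1, with moderated variances), with Benjamini-Hochberg adjustment at 0.05. The within-tissue fits used 10 arrays each, and the interaction fit all 20. Arrays of 1 tissue were not identical (r within groups 0.733 to 0.959). The fits were tested on simulated data. Permutation tests of correlations used 100000 permutations and were two-sided. Both tissues of an animal carry its number in the labels, and same-mouse deviations correlated at a median of 0.157 over 10 pairs, against −0.042 over 40 pairs of different mice. The members and gene lists were chosen with earlier results of these data known. Values per array are given for Col1a1, Col1a2, Col2a1, Col3a1, Col6a2, Col6a3, Col10a1 and Col15a1, and further genes were named after their values were seen. Promoter sequences are from RefSeq, matched by gene ID for 34 of the 42 genes. The windows of Col1a1, Col2a1, Col4a3, Col5a2, Col9a3, Col14a1, Col22a1 and Col26a1 were not used. A fold given as at least N sets the brighter group's mean against the higher, per array, of the background and the probe set's own value in the dimmer group. It compares means and does not allow for the spread between mice. Alternatives covered normalization, the filter, sex, array weights, control probe sets (AUC of positive against negative), spike-in sets, the methods' t-test, the mouse as a block, and leaving out mice, of which leaving out WT mice 33 and 55 together was chosen after seeing the data.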

Additional observations from a re-analysis of the deposited data

Results flagged for a closer look

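In 48 sets of 5 arrays checked for a single distant value, 3 had one, and chance gives such a value in about 1 of 20 sets. Col10a1 measured 15.73 in AF WT replicate 33, against 5.58 to 7.65 in the other AF WT arrays. Col3a1 measured 15.58 in the same array, against 8.06 to 9.43. The osteoblast, macrophage and osteoclast, muscle, fibroblast and pericyte, and endothelium lists were also high there, and their part in these values was not tested. Col1a1 measured 7.40 in NP ank replicate 41, against 8.29 to 8.51 in the other NP ank arrays.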

How the results depend on the processing

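No setting gave a collagen gene an adjusted p under 0.05 between genotypes or in the interaction. At the study's thresholds the AF count of 0 became 1 without a filter (Col15a1), 4 with the control AUC as a covariate (Col1a1, Col1a2, Col3a1 and Col11a1), 2 within spike-in set A (Col1a1 and Col1a2), 1 within set B (Col6a1) and 1 without WT mice 33 and 55 (Col10a1), and leaving out single mice gave 0 to 1. Over the settings, 25 to 930 of all genes were higher and 3 to 144 lower at these thresholds, of 2108 to 19505 tested. The NP count of 1 became 2 without a filter (Col15a1 added) or with array weights (Col6a1 added) and 0 with the methods' t-test, within set B or without WT mice 33 and 55, and leaving out single mice gave 0 to 1 (0 without WT 32, WT 55 or ank 41). In the NP 15 to 162 of all genes were higher and 83 to 326 lower, of 4405 to 19505 tested. The interaction count of 0 became 1 with the control AUC (Col11a1) and 1 within set A (Col1a1), while 51 to 802 of all genes were higher and 4 to 392 lower. The tissue count in WT mice of 6, and 7 at the study's thresholds, became 11 and 13 both after quantile normalization and without a filter, and 5 to 6 and 5 to 7 leaving out single mice. Over the settings 54 to 489 of all genes were higher and 1134 to 5646 lower by adjusted p. At the study's thresholds these were 69 to 702 and 1585 to 6304. The counts of 7 and 7 in ank mice became 12 and 13 without a filter, 3 and 4 within set A and 0 by adjusted p within set B, and 4 to 7 and 4 to 8 leaving out single mice. Of all genes in ank mice, 3 to 295 were higher and 0 to 4882 lower by adjusted p. At the study's thresholds these were 68 to 348 and 707 to 5929. With the mouse as a replicate block the pairing gave 6 and 7 in WT, 7 and 8 in ank mice and 0 and 0 in the interaction, and the genes called by adjusted p were the same, while Col11a1 entered at the study's thresholds in both genotypes and Col9a3 left in WT mice.

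The differences that changed sign missed the thresholds as deposited. Of them, Col10a1 met the study's thresholds with its sign changed, without WT mouse 33 and without WT mice 33 and 55. In the AF, Col1a1 and Col1a2 met them with the sign unchanged, with the control AUC and within set A. Col10a1 had entered the AF comparison through its ank arrays, so the filter favoured a higher ank value. In the AF between genotypes, Col2a1 was −0.084 after quantile normalization, −0.053 with the control AUC and −1.81 within set A, and ranged from −0.49 to 1.05 leaving out single mice. Col6a2 was −0.47 after quantile normalization, −0.70 within set A and −0.28 without WT mice 33 and 55, and ranged from −0.23 to 0.76. Col6a3 was −0.35, −0.59 and −0.017 in the same settings, and ranged from −0.044 to 0.43. Col10a1 was 0.52 with array weights, 1.44 within set B and 1.71 without WT mice 33 and 55, and ranged from −1.03 to 1.51. Col1a1 was 0.37 and Col1a2 1.54 within set B, and Col1a2 was 0.15 without WT mice 33 and 55 and ranged from −1.62 to 0.088. In the NP, Col6a2 was 0.039 with the control AUC and 0.88 within set B and ranged from −0.50 to 0.10, and Col6a3 was −0.11 with array weights and −0.42 within set A. Col15a1 between the tissues of WT mice was −0.33 within set A. The cause was not tested. Signal over background limits the AF most, where 1782 to 6368 genes were above it.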
